A study of Pyrus hybrid rootstock with 24 samples.

Results

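A group of genes in pear graft unions had its highest expression at 30 days after grafting (DAG) in both homografts and heterografts, with little difference between the graft types at any stage. The 45 members, of 42812 genes deposited, were chosen from the measured values by a rule. A gene had to reach an FPKM (fragments per kilobase of gene, scaled to the fragments of the library) of at least 1 in at least 3 of 24 libraries, which 26895 genes did. The mean of log2(FPKM + 1) over 3 libraries was taken for each condition, and homografts and heterografts had to lie less than 0.5 apart at all 4 stages, which 18924 genes did. The gap of a gene is the lower of its day 30 means minus the highest of its 6 other means, and members had a gap of at least 1 on the log2 scale, which is close to a doubling where FPKM is well above 1. Of 125 genes with such a gap, 80 were past the limit on the graft difference and 45 were kept. A set of 43 genes named in the study was left out, and none of the 39 that passed the filter had a gap of 1 (0 genes, largest gap 0.16).

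RNA-seq was performed on stem tissue of graft unions from micro-grafted pear plantlets that were fixed with silicon tubing and grown in tissue culture. Homografts were “Qingzhen D1” on “Qingzhen D1”, a cultivar from a cross of Pyrus communis and P. bretschneideri, and heterografts carried a scion of QAUP-1, a P. ussuriensis genotype, on a “Qingzhen D1” rootstock. The stages were SS (separation, 1 DAG), CF (callus formation, 5 DAG), CD (cambium differentiation, 9 DAG) and VC (vascular connection, 30 DAG), which gave the conditions SSS, SCF, SCD and SVC in homografts and DSS, DCF, DCD and DVC in heterografts. Each condition had 3 libraries, described in the methods as biological replicates, and 10374028 to 13630159 reads per library fell on genes. Both graft types share the rootstock genotype, and RNA of scion and rootstock was not separated, so a graft union with more cells of a type and one with more RNA per cell cannot be told apart. No ungrafted plantlets were sampled, so that the healing of the union, the age of the plantlet and its time in culture cannot be told apart at day 30. In the design text of the series the scion and rootstock of the heterograft are given the other way round, and groups here follow the sample titles.

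When a graft heals, the cut surfaces are first sealed and bridged by callus, a mass of dividing cells that have little specialised form. A new cambium, the dividing layer that makes wood and bast, then differentiates in the callus and joins the cambia of scion and rootstock. It forms xylem, which carries water, and phloem, which carries sugars, and their continuity across the union is what the VC stage is named for. The deposited values give identifiers without gene names, and no annotation was used here. Therefore, no member is given a function, the tissue label could not be checked against marker genes, and no count can be given for xylem, phloem, lignin or other gene lists. Apart from 4 genes given by identifier, members are called by their rank in the gap.

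The gaps of the members were between 1.01 and 1.93, with a median of 1.23, and 25 members had a gap of at least 1.2. These values, the rise to day 30 and the small graft difference were set by the rule and are given as a description. The members ranked 43, 44 and 45 were just inside the threshold, with gaps of 1.012, 1.011 and 1.010, and the next genes outside had gaps of 0.959, 0.956 and 0.955. Genes on both sides of the threshold differed in level and in overlap. The member ranked 44 had 23.0 FPKM in its lowest day 30 library and 27.3 FPKM in its highest early library. In the second gene outside these were 2.18 and 2.77 FPKM, so both genes overlapped. The first gene outside was between 978 and 1991 FPKM at day 30 and between 175 and 866 FPKM before. The member ranked 45 was between 9.30 and 18.03 FPKM at day 30 and between 2.31 and 7.81 FPKM before, and the third gene outside was between 4.34 and 8.68 FPKM at day 30 and between 1.35 and 3.51 FPKM before. The same rule, applied to the other days, found 20 genes highest on day 1, 0 highest on day 5 and 0 highest on day 9. It found 25 genes lowest on day 1, 7 lowest on day 30, and 0 lowest on day 5 or day 9. Among the 80 genes past the graft limit, the graft types were at least 0.5 apart most often at day 1, with 20 genes higher in heterografts and 26 in homografts, and at day 9, with 34 and 3. At day 5 the counts were 5 and 24, and at day 30 they were 4 and 14. The shares over all tested genes are not given here, so nothing is read from these counts.

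**Figure D1:**
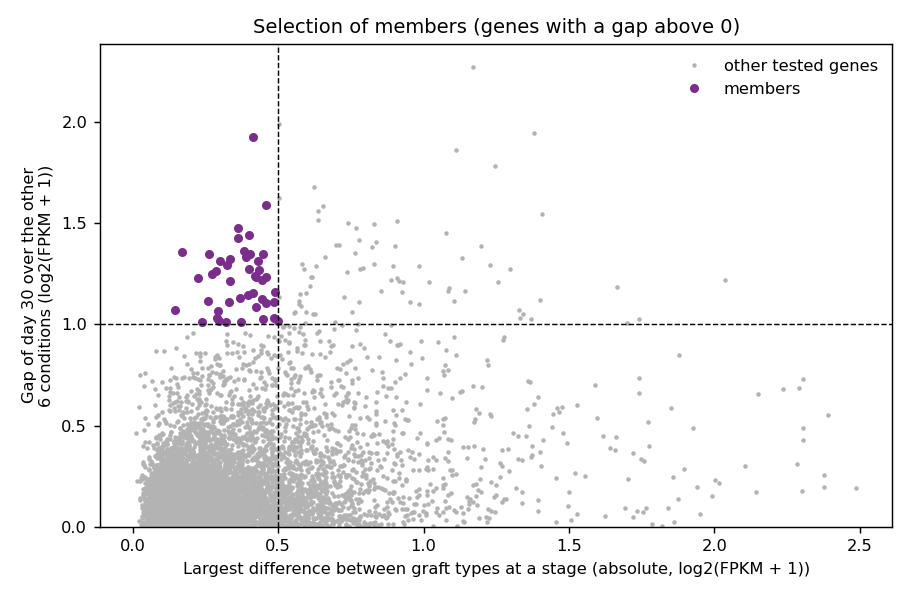
The choice of members, with 1 point per tested gene with a gap above 0. The x axis is the largest absolute difference between graft types over 4 stages and the y axis is the gap of day 30 over the other 6 conditions, both in log2(FPKM + 1). The dashed lines are the limits of 0.5 and 1, and the 45 members, in purple, lie above 1 and left of 0.5. The 10 genes with a difference of 2.5 or more, 0 of them with a gap of at least 1, are not drawn.

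One day 30 library was the lowest of its condition for most members. SVC replicate 2 was the lowest of the 3 SVC libraries for 39 of 45 members, against 40.3% of tested genes. It was below the other 5 day 30 libraries for 20 members, and the share of tested genes for this is not given here. In each early condition 1 library was also lowest most often, for 18 members (DCD replicate 2) to 28 members (SCF replicate 3). These early libraries were lowest for 31.7% to 40.5% of tested genes. The mean of log2(FPKM + 1) over the members was 4.24, 3.62 and 4.33 in the SVC libraries and 3.91, 3.77 and 4.11 in the DVC libraries. On a scale where the day 9 mean of a graft type is 0 and its other day 30 libraries are 1, the tested genes outside the members placed SVC replicate 2 at 0.618, and the other day 30 libraries lay between 0.730 and 1.00. SVC replicate 2 thus had the lowest mean over the members, and the lowest place on this scale over other genes. The scale is not a level, and it is set for each graft type on its own. DVC replicate 1 was the lowest of the 3 DVC libraries for 43.1% of tested genes. The part of this library in the results was not tested beyond the values given with and without it.

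All 6 day 30 libraries were above all 18 libraries of days 1 to 9 in 41 of 45 members. Over all tested genes the share was 5.54%, and since the rule chose members for a day 30 difference nothing is read from the count. Without SVC replicate 2 the count was 42, with 6.74% of tested genes. The median FPKM of the members was 1.45 to 4.85 in the early libraries and 8.94 to 13.5 in the day 30 libraries. The rule favours this separation, and nothing is read from it. The members took 0.0486% to 0.123% of summed FPKM in the early libraries and 0.213% to 0.316% at day 30.

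**Figure D2:**
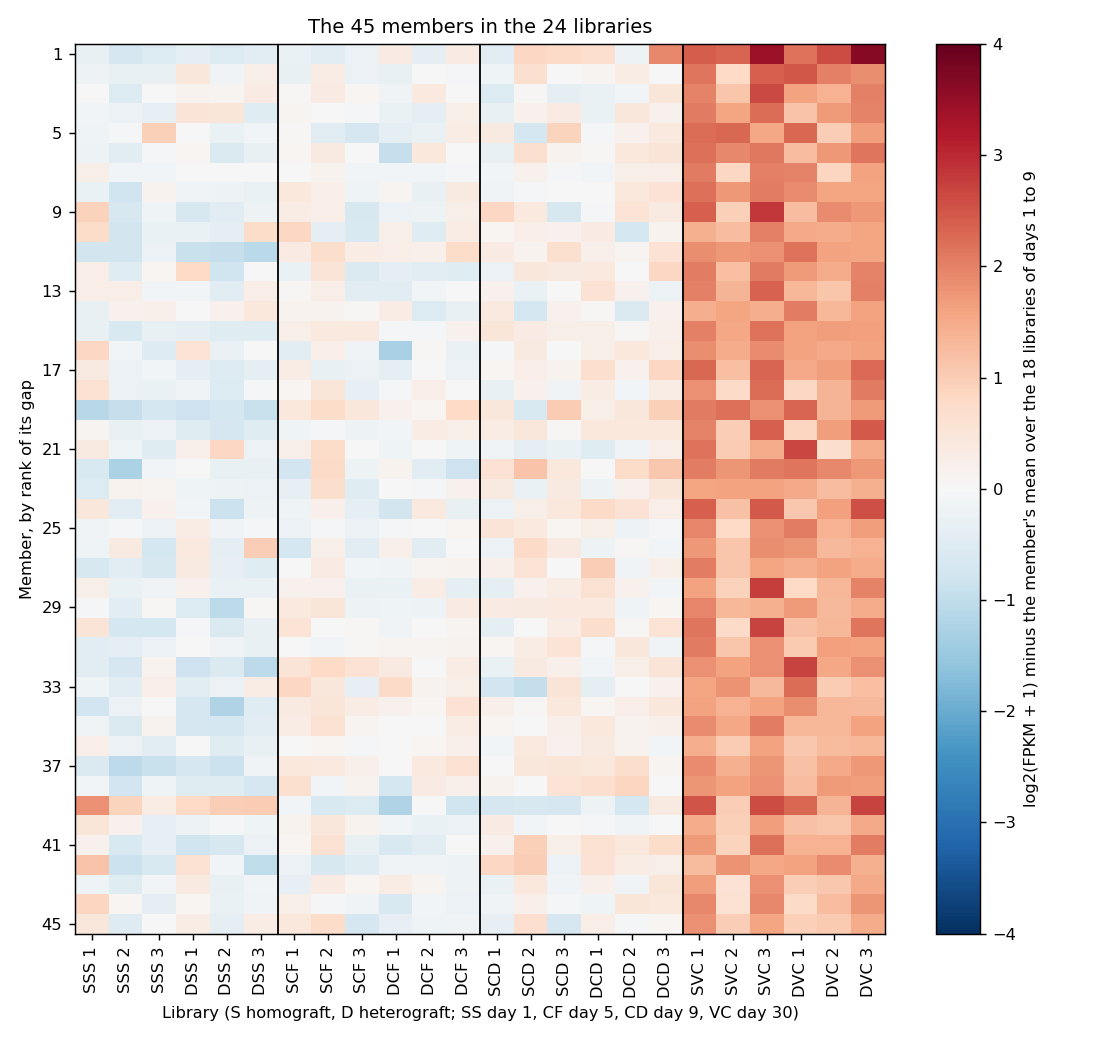
Each row is 1 of 45 members, ordered by the rank of the gap, and each column is 1 of 24 libraries, grouped by day. Colour is log2(FPKM + 1) minus the mean of that member over the 18 libraries of days 1 to 9. The 6 columns on the right, day 30, are red in all rows, the column of SVC replicate 2 is the palest of the SVC libraries in 39 rows, and the member ranked 39 is also red at day 1.

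In a limma fit over all tested genes (Benjamini-Hochberg adjusted p below 0.05 and a log2 fold change above 1), 44 members were called higher from day 9 to day 30 in homografts, against 2.75% of tested genes, and 45 in heterografts, against 1.71%, which the rule fixed and from which nothing is read. The mean FPKM of day 30 was 2.62 to 26.0 times that of days 1 to 9 over the members, with a median of 4.01, and 18 members were at least 5 times higher. Without SVC replicate 2 the ratio was 2.79 to 30.5, with a median of 4.63. Against day 9 alone the ratio was 2.35 to 16.7, with a median of 3.44. The members at day 30 were ordinary in level, with a median of 11.6 FPKM against 11.1 over tested genes, and 23 of 45 were above that value. On days 1 to 9 their median was 2.73 FPKM against 10.5 over tested genes, and 12 of 45 were above that value. The rule holds the early means below those of day 30, so nothing is read from the low median.

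The members were split into 3 classes by their highest early mean. In 9 members every early mean was under 1 FPKM, and their day 30 means were 2.42 to 4.37 FPKM, 6.17 to 26.0 times the early mean (median 9.70). In 21 members the highest early mean was between 1 and 10 FPKM, the day 30 means were 3.73 to 25.3 FPKM, and the ratio was 2.62 to 12.4 (median 4.34). In 15 members it was 10 FPKM or more, and their day 30 means of 29.8 to 1422 FPKM were 2.76 to 4.33 times the early mean (median 3.27). The rule fixes this order of folds, since the gap adds 1 before the log and a gene with a low early mean needs a larger fold to reach a gap of 1. The filter can also be met through day 30 libraries alone, as in the members ranked 2 and 7. Nothing is therefore read from the low early levels of the first class. The median gap was 1.26 in the lowest class and 1.23 in the highest.

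The member with the largest gap was Pbr010180.1, with a coding length of 1098 bp as implied by the FPKM steps. In SVC it had 8.09, 7.51 and 17.7 FPKM and in DVC 6.68, 9.36 and 20.4 FPKM. At day 1 it had 0.401, 0.0769 and 0.165 FPKM in SSS and 0.320, 0.157 and 0.239 FPKM in DSS, and at day 9 it had 0.267, 2.06 and 1.90 FPKM in SCD and 1.73, 0.492 and 5.44 FPKM in DCD. Its level was therefore already spread at day 9, where DCD replicate 3 came close to the lowest day 30 library, but the groups did not overlap. The mean of day 30 was 12.4 times that of days 1 to 9 and 5.86 times that of day 9, with a gap of 1.93.

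The next member, Pbr000733.1 (1380 bp of coding length), was almost silent before day 30. It had 0.0637, 0 and 0 FPKM in SSS, 0, 0.507 and 0.0591 FPKM in SCF and 0.106, 0.929 and 0.242 FPKM in SCD. In heterografts it had 0.6997, 0.125 and 0.444 FPKM in DSS, 0, 0.245 and 0.180 FPKM in DCF and 0.345, 0.522 and 0.210 FPKM in DCD. At day 30 it had 4.44, 1.14 and 5.47 FPKM in SVC and 5.92, 4.01 and 3.47 FPKM in DVC. The groups did not overlap, though SVC replicate 2 was only slightly above the highest early library, SCD replicate 2. Its mean was 15.7 times higher at day 30 than on days 1 to 9, with a gap of 1.59. No early library reached 1 FPKM, so it met the filter only through day 30, and its low early level is a description.

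**Figure D3:**
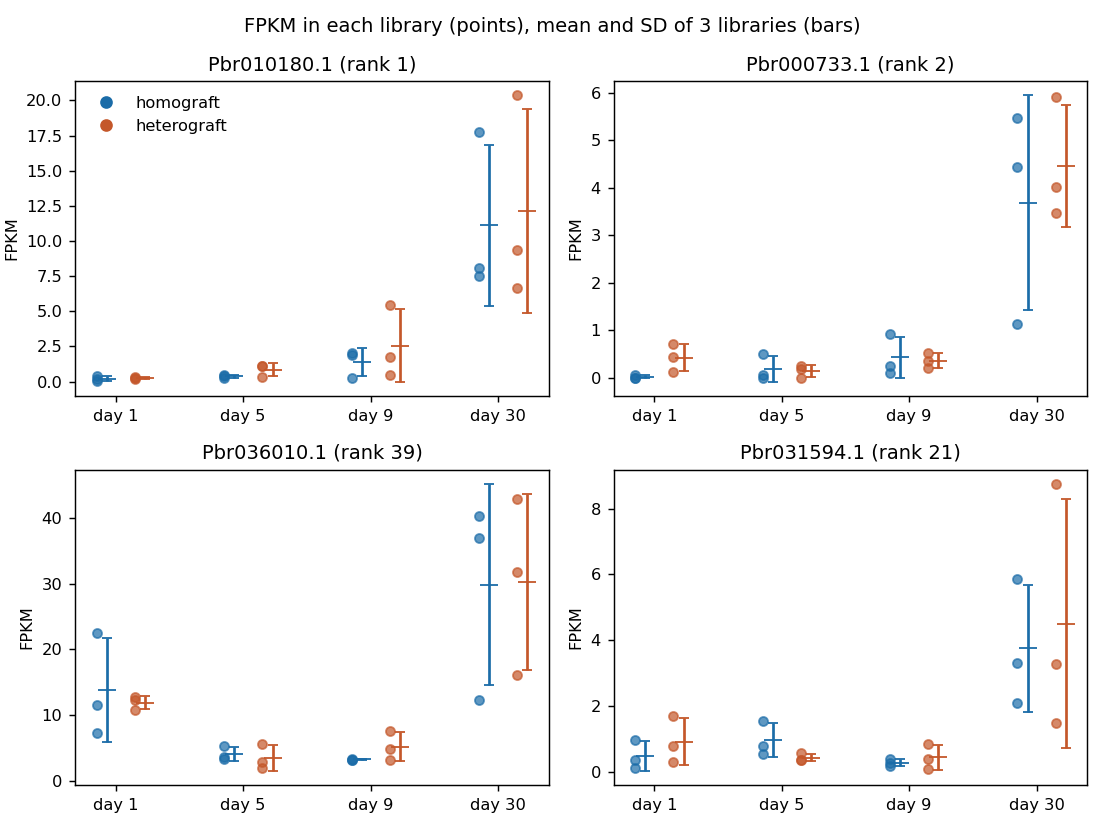
FPKM of 4 members by day, with homografts in blue and heterografts in orange. Points are libraries, and bars are the mean and SD of 3 libraries. Day 30 is highest in each panel, and Pbr036010.1 also shows a higher level at day 1, at 7.26 to 22.6 FPKM, than at days 5 and 9.

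Members ranked 3 to 6 differed in level more than in pattern. The member ranked 3 had 4.75, 2.16 and 8.09 FPKM in SVC and 3.45, 2.83 and 4.94 FPKM in DVC, against no more than 1.06 FPKM in an early library. The member ranked 4 had 6.43, 4.17 and 7.20 FPKM in SVC and 2.87, 4.67 and 5.89 FPKM in DVC, against at most 1.48 FPKM before. In the member ranked 5 the day 30 libraries had 11.2, 11.9 and 6.63 FPKM in SVC and 11.96, 4.22 and 7.38 FPKM in DVC, and its highest early library had 4.10 FPKM, so the margin between the groups was narrow. The member ranked 6, with a short coding length of 261 bp, had 60.1, 49.6 and 55.9 FPKM in SVC and 29.9, 43.3 and 57.3 FPKM in DVC, against 6.06 to 19.6 FPKM before.

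The largest ratio of day 30 to days 1 to 9, 26.0, was in the member ranked 7. It had 3.58, 0.952 and 3.42 FPKM in SVC and 3.29, 0.973 and 2.30 FPKM in DVC, and no early library was above 0.297 FPKM. Replicate 2 of both graft types was low in this member. Its 3 SSS libraries held 4 recovered reads together and its 3 SVC libraries 122, so the early level, and with it the ratio, rests on few reads. In 8 members there were 0 reads in at least 1 library, and no member had 0 reads in all 3 libraries of a condition (0 members).

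The most abundant member was ranked 12. It held 49.9% of the summed day 30 FPKM of the members, and its coding length of 195 bp was the shortest among them. It had 492, 291 and 435 FPKM in SSS, 344, 591 and 277 FPKM in SCF, 349.9, 564 and 532 FPKM in SCD, and 1706, 951 and 1751 FPKM in SVC. In heterografts it had 708, 238 and 408 FPKM in DSS, 317, 298 and 296 FPKM in DCF, 538, 403 and 738 FPKM in DCD, and 1334, 1162 and 1629.8 FPKM in DVC. It was thus strongly expressed at each stage, and about 3.27 times higher at day 30 without overlap. How reads that align to several genes were counted is not given in the sources used here, which bears most on short and abundant genes. The members ranked 34, at 319 to 473 FPKM at day 30 and 55.6 to 194 FPKM before, and 19, at 142 to 279 FPKM and 24.7 to 112 FPKM, were the next most abundant.

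In 4 members the day 30 libraries overlapped with early ones. The member ranked 41 had 5.19 FPKM in SVC replicate 2 against 5.34 FPKM in SCD replicate 2. In the member ranked 44 the lowest day 30 library, SVC replicate 2, had 23.0 FPKM and the highest early library, SSS replicate 1, had 27.3 FPKM. The others were Pbr031594.1 (ranked 21) and Pbr036010.1 (ranked 39), the members with the largest decrease from day 1 to day 9. Without SVC replicate 2, the member ranked 41 no longer overlapped, and the other 3 did.

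**Figure D4:**
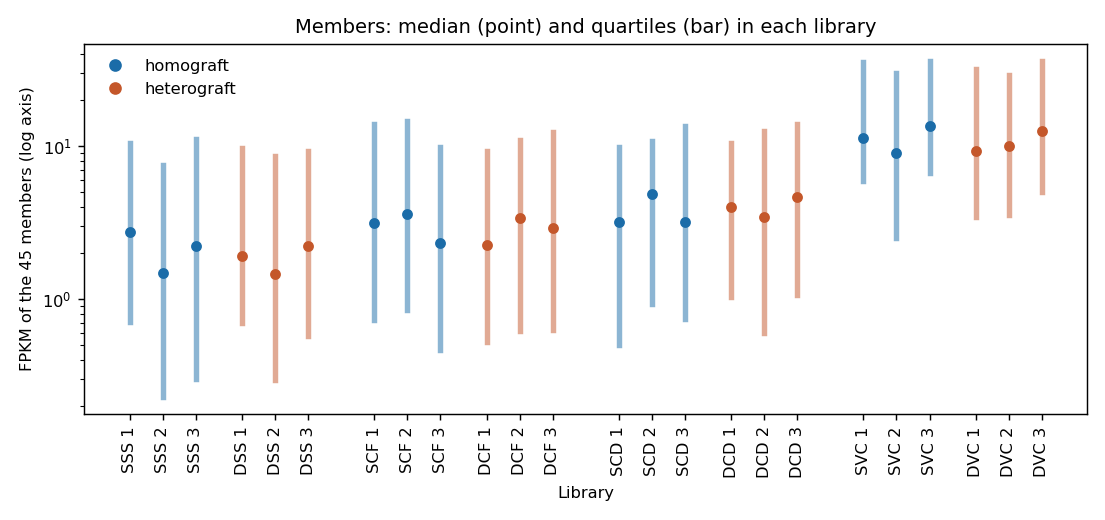
Median (point) and quartiles (bar) of FPKM over the 45 members in each of the 24 libraries, on a log axis, with homografts in blue and heterografts in orange. The medians of the 18 early libraries lie between 1.45 and 4.85 FPKM and those of the 6 day 30 libraries between 8.94 and 13.5 FPKM.

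Homografts and heterografts were close by the rule, and the largest difference of a member at any stage was 0.14 to 0.50 (median 0.39) on the log2(FPKM + 1) scale. Within that limit, 36 members were higher in SVC than in DVC and 9 were higher in DVC. The median of DVC minus SVC was -0.16, and it was between -0.43 and 0.35. Among the 18924 genes within the limit, 50.2% were higher in SVC. Without SVC replicate 2, the library with the lowest mean over the members at day 30, 41 members were higher in SVC. The share was 52.2% of the genes within the limit, and the median over the members was -0.34. With upper-quartile scaling 36 members were higher in SVC, against 46.2%. These differences are a description, since the rule used them.

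The median spread between replicates was larger over the members than over tested genes in each of the 8 conditions. No comparison was made with genes of like level or length, or without SVC replicate 2. The larger spread is therefore not read as a trait of the members. The median SD of log2(FPKM + 1) was 0.416 over the members and 0.164 over tested genes in SVC, and 0.334 and 0.184 in DVC. In the early conditions it was between 0.238 and 0.364 over the members and between 0.152 and 0.185 over tested genes. The coding lengths of the members were 195 to 3669 bp with a median of 792 bp, against 1101 bp over tested genes and 1221 bp over the genes within the graft limit, and 30 of 45 were shorter than the median of tested genes. Short genes were most frequent among the abundant members, with a median length of 633 bp in the class with an early mean of 10 FPKM or more and 1299 bp in the class under 1 FPKM. No members had identifier numbers that follow each other (0 pairs).

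The rule did not use the order of the early stages. It held the highest early mean down and kept the means of the graft types close at each stage. In homografts the highest early mean was at CD in 24 members, at CF in 17 and at SS in 4, and the shares over tested genes were 38.2%, 31.0% and 30.7%. In heterografts it was at CD in 31, at CF in 5 and at SS in 9, against 43.3%, 23.5% and 33.2%. Day 9 was the highest early stage in both graft types in 18 members, against 22.5% of tested genes, and day 1 was the lowest in both in 20 members, against 31.6%. A steady increase of the means from day 1 to day 5 and day 9 was seen in 15 members in homografts and 23 in heterografts, and in 9 in both, against 30.5%, 27.5% and 12.3% of tested genes. The graft limit of the rule favours the same order in both graft types, and the shares are those of all tested genes, with or without that limit. Nothing is therefore read from the counts of members with an order in both. These orders were not tested, and many rest on differences within the spread of replicates.

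To ask whether members changed before day 30, the early stages were compared in a limma fit over all 26895 tested genes, and a change was called at a Benjamini-Hochberg adjusted p below 0.05 and an absolute log2 fold change above 1 on the log2(FPKM + 1) scale. From day 1 to day 9 in homografts, 3 of 45 members rose, against 5.16% of tested genes, and 1 fell, against 2.69%. In heterografts 7 members rose, against 3.60%, and 0 fell, against 2.49%, and at an unadjusted p below 0.05 with the same fold 1 fell, against 2.60%. The median change was 0.28 over the members and 0.10 over all tested genes in homografts, and 0.40 and 0.09 in heterografts. The change was above 0 in 34 members in homografts and 36 in heterografts. The share of tested genes above 0 is not given here, and their medians were also above 0, so nothing is read from these numbers. The count in homografts was near the background, and that in heterografts was above it. The background is all tested genes, with or without the graft limit, and members were chosen for a large change between stages. Nothing is therefore read from the count in either graft type. Whether the graft types differ in this count was not tested. With a pseudocount of 0.1, 7 members rose and 1 fell in homografts, against 7.49% and 3.18% of tested genes, and 11 rose in heterografts, against 5.53%.

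From day 1 to day 5, 3 members rose and 1 fell in homografts, against 3.93% and 2.61% of tested genes. In heterografts 4 rose and 1 fell, against 2.25% and 1.65%. These counts moved with single libraries, to 2 members in homografts without SSS replicate 1 or SCF replicate 2 and to 2 in heterografts without DCF replicate 3. With a pseudocount of 0.1, 6 rose and 1 fell in homografts, against 6.03% and 3.09%. From day 5 to day 9 no member was called in homografts (0 members by limma and 0 by voom), where 0.00% of tested genes was called in either direction. At an unadjusted p below 0.05 with the same fold it was also 0 members, against 0.372% of tested genes higher and 0.234% lower. No member was called in heterografts either (0 members by both tools), against 0.461% higher and 0.543% lower, and 0 at an unadjusted p below 0.05, against 1.58% and 1.01%. In all, 10 members were called in at least 1 of 6 early comparisons, 9 of them higher and 1 lower, and 35 were called in none. Of all tested genes 13.1% were called in at least 1 of them, 8.53% higher and 4.92% lower. With voom no member was called lower in any early comparison (0 members). The shares of tested genes given here are those of limma, so nothing is read from the voom counts.

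Both the member ranked 11 and the member ranked 19 rose from day 1 to day 5 in each graft type. The share of tested genes called in both graft types is not given here, and the graft limit of the rule favours such calls. Nothing is therefore read from their number. In the member ranked 11 the SSS libraries had 10.9, 10.98 and 15.9 FPKM and the SCF libraries 24.2, 31.6 and 23.5 FPKM, and the groups did not overlap (log2 change 1.02 ± 0.18 SE, limma adjusted p = 0.00046). In heterografts it had 9.64, 9.55 and 8.51 FPKM in DSS and 23.0, 22.1 and 31.9 FPKM in DCF, again without overlap (1.37 ± 0.18 SE, limma adjusted p = 3.1e-05). At day 9 it remained at 20.5 to 29.9 FPKM, before it reached 58.4 to 88.7 FPKM at day 30. The libraries of day 5 and day 9 overlapped in both graft types.

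The member ranked 19 also rose from day 1 to day 9 in both graft types. It had 24.7, 28.7 and 33.6 FPKM in SSS, 73.4, 92.5 and 75.1 FPKM in SCF and 74.9, 35.2 and 112 FPKM in SCD, and 236, 255 and 195 FPKM in SVC. In heterografts it had 30.5, 33.5 and 29.2 FPKM in DSS, 62.1, 58.4 and 95.2 FPKM in DCF and 64.4, 75.4 and 108 FPKM in DCD, and 279, 142 and 181 FPKM in DVC. All libraries of day 5 and day 9 were above those of day 1. From day 1 to day 9 the log2 change was 1.18 ± 0.31 SE in homografts (limma adjusted p = 0.0070) and 1.35 ± 0.31 SE in heterografts (limma adjusted p = 0.0028).

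The members ranked 22 and 37 rose from day 1 to day 9 in homografts, by 1.37 ± 0.35 SE (limma adjusted p = 0.0069) and 1.16 ± 0.22 SE (limma adjusted p = 0.00059) on the log2 scale. In heterografts the member ranked 37 had a change of 0.97, just under the fold limit (limma adjusted p = 0.0028). Pbr010180.1, the member with the largest gap, rose from day 1 to day 9 in heterografts by 1.27 ± 0.45 SE (limma adjusted p = 0.043), and in homografts its change of 0.89 did not pass (limma adjusted p = 0.15). The members ranked 11, 32, 34, 38 and 41 also rose from day 1 to day 9 in heterografts, by 1.03 to 1.26 on the log2 scale. They covered a wide range of levels, from the member ranked 34, at 55.6 to 194 FPKM on days 1 to 9, to Pbr010180.1, at 0.0769 to 5.44 FPKM.

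**Figure D5:**
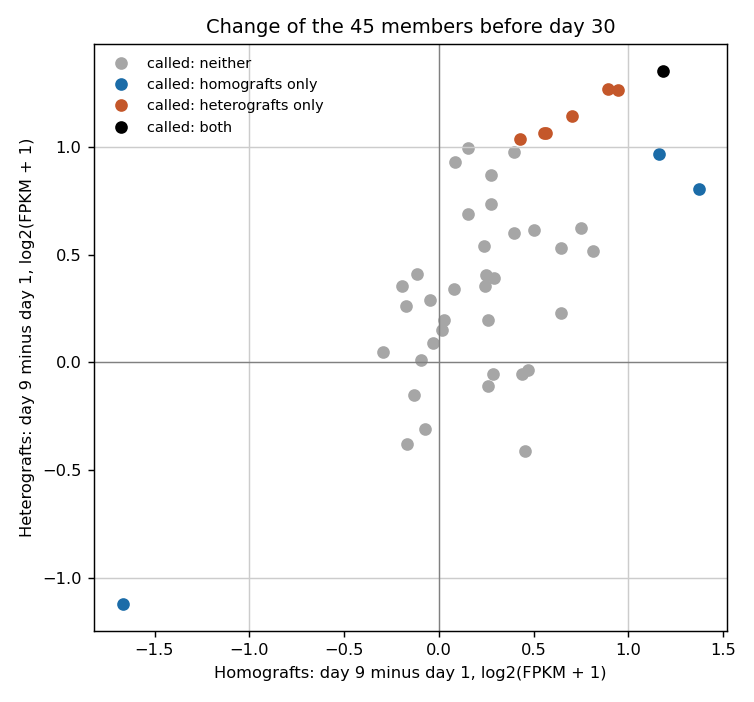
Change from day 1 to day 9 in log2(FPKM + 1) for the 45 members, with homografts on the x axis and heterografts on the y axis. Colours mark members called in homografts, heterografts or both, and grey lines mark a change of 1 or -1. Most points are above 0 on both axes, 1 member is called higher in both, and Pbr036010.1 stands alone at the lower left with -1.67 and -1.12.

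Pbr036010.1 (573 bp of coding length) was the 1 member that fell in the early stages, and had high levels at both ends of the time course. It had 22.6, 11.5 and 7.26 FPKM in SSS, 5.23, 3.35 and 3.56 FPKM in SCF, 3.20, 3.29 and 3.21 FPKM in SCD, and 37.0, 12.2 and 40.3 FPKM in SVC. In heterografts it had 10.7, 12.3 and 12.7 FPKM in DSS, 1.89, 5.61 and 2.89 FPKM in DCF, 4.85, 3.14 and 7.57 FPKM in DCD, and 31.7, 16.1 and 42.9 FPKM in DVC. Within each graft type all libraries of day 1 were above those of days 5 and 9, and SVC replicate 2 overlapped with SSS. In heterografts all DVC libraries were above all DSS libraries. From day 1 to day 5 it fell by 1.43 ± 0.43 SE in homografts (limma adjusted p = 0.019) and by 1.61 ± 0.43 SE in heterografts (limma adjusted p = 0.011) on the log2 scale. Neither passed with voom on recovered reads (adjusted p = 0.10 and 0.085), the former did not pass without SSS replicate 1 (a log2 change of -1.03, limma adjusted p = 0.11), SCF replicate 2 (-1.33, 0.064) or SCF replicate 3 (-1.37, 0.056), and the latter did not pass without DCF replicate 1 (-1.34, 0.059). From day 1 to day 9 it fell by 1.67 ± 0.43 SE in homografts (limma adjusted p = 0.0068), whereas the change of -1.12 ± 0.43 SE in heterografts did not pass (limma adjusted p = 0.059). With voom on recovered reads, the change in homografts did not pass either (-1.92, adjusted p = 0.058).

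Pbr031594.1 (912 bp of coding length) had the second largest decrease from day 1 to day 9 over both grafts, but neither change passed the test. It had 0.965, 0.370 and 0.0992 FPKM in SSS and 0.402, 0.165 and 0.275 FPKM in SCD, a log2 change of -0.17 (limma adjusted p = 0.80). In heterografts it had 0.770, 1.70 and 0.288 FPKM in DSS and 0.0870, 0.395 and 0.846 FPKM in DCD, a change of -0.38 (limma adjusted p = 0.51). At day 30 it had 5.86, 2.08 and 3.31 FPKM in SVC and 8.75, 1.47 and 3.28 FPKM in DVC, and DVC replicate 2 was below DSS replicate 2.

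The membership itself moved with single libraries. Without SVC replicate 2, 36 genes met the rule, of which 29 were among the 45, and 15 of the 16 that were lost went past the graft limit while 44 of the 45 kept a gap of at least 1. Without DVC replicate 3, 29 genes met the rule and 28 of them were among the 45. Without DVC replicate 1, 58 genes met it, and 40 of the 45 were among them.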

How the data were processed

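The FPKM values deposited by the authors, 1 file per library, came from reads trimmed by Cutadapt, placed on the Pyrus bretschneideri genome by HISAT2 and counted by HTSeq. All 24 libraries were grouped by their deposited titles. Whole reads were recovered from the steps of FPKM (tolerance 0.0002 reads, largest deviation 6.6e-05) for each of the 32966 genes with values above 0 in 4 or more libraries, and 100% of 15570 gene lengths implied for genes over 100 reads were multiples of 3, and are called coding lengths. FPKM is scaled to the reads of a library, so a change is relative to all other genes.

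Members were selected on condition means. Early changes were tested in R 4.3.3 with limma 3.58.1 after a log2 transform of FPKM with a pseudocount of 1, using a mean-variance trend, 8 condition means, no covariate, and 16 residual and 3.55 prior degrees of freedom, with two-sided tests and Benjamini-Hochberg adjustment over all 26895 tested genes. Such fold changes understate the change of low genes. An exact permutation test of 3 libraries against 3 cannot give a p under 0.1 and was not used. The fold limit is that of the study, which used a count test. The fit was tested on simulated data. Python 3.11.15 with pandas 2.3.3 and numpy 2.4.6 gave the other values.

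Given by identifier were the 2 members with the largest gap and the 2 with the largest decrease from day 1 to day 9. Members ranked 1 to 6 and those next to the threshold were also described. Members described besides these were chosen after their values were seen. Gene lists of wood, phloem, lignin, and other pathways were set up but not used, as identifiers carry no names. The members and lists were chosen with earlier results of these data known. Alternatives were upper-quartile scaling, a pseudocount of 0.1, no filter or a filter at an FPKM of 5, no trend, the replicate number as a block, an unadjusted p, only the 6 libraries compared, voom on recovered reads, and each library left out in turn. The alternatives for the 4 named genes and the values of the 45 members without SVC replicate 2 were chosen after seeing the data.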

Additional observations from a re-analysis of the deposited data

How the results depend on the processing

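With other processing, 37 genes met the rule under upper-quartile scaling (36 of the 45), 35 with a pseudocount of 0.1 (20 of the 45), 45 without a filter and 32 with a filter at an FPKM of 5 (32 of the 45). With each library left out in turn, 29 (without DVC replicate 3) to 58 genes met it. Members called from day 1 to day 9 were 3 to 5 in homografts and 5 to 8 in heterografts, from day 1 to day 5 they were 2 to 5 in both (2 without SSS replicate 1, SCF replicate 2, or DCF replicate 3), and from day 5 to day 9 they were 0 in homografts and 0 to 1 in heterografts (1 without DCD replicate 1). The count from day 9 to day 30, which the rule fixes, was 40 to 45 in homografts and 32 to 45 in heterografts, against 44 and 45 with all libraries and 2.75% and 1.71% of tested genes. A pseudocount of 0.1 raised the counts from day 1 to day 9 to 8 in homografts and 11 in heterografts, and that from day 1 to day 5 in homografts to 7, and the share of all tested genes called higher rose as well, from 5.16% to 7.49%, from 3.60% to 5.53% and from 3.93% to 6.03%. The other alternatives kept the counts within 1.5 times.

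The gap of Pbr010180.1 was 1.43 to 2.34 and that of Pbr000733.1 was 1.28 to 1.94 over the libraries left out, and the latter was 2.77 with a pseudocount of 0.1. The change of Pbr036010.1 from day 1 to day 9 in homografts was -2.02 to -1.26, and in heterografts it was -1.39 to -0.86. From day 1 to day 5 it was -1.78 to -1.03 and -1.94 to -1.34. The change from day 1 to day 9 in heterografts passed the threshold under upper-quartile scaling (limma adjusted p = 0.047), with only the 6 libraries compared (0.028), and without SSS replicate 1 or 3, SVC replicate 2, DCD replicate 3 or DVC replicate 2. The change of Pbr031594.1 was -0.36 to 0.06 in homografts, and its sign is thus not settled.

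In no comparison made here did all 3 same-numbered pairs of libraries have an r above 0.1 (0 of 8, r between -0.12 and 0.12), so the numbers were not taken to pair them. Over all 28 pairs of conditions, 1 had this, DCD and SCD (r between 0.13 and 0.18), which were not compared by a test here. With the replicate number as a block, 4 and 7 members were called from day 1 to day 9 in homografts and heterografts, 4 and 5 from day 1 to day 5, 0 and 0 from day 5 to day 9, and 44 and 45 from day 9 to day 30, the counts of the fit without it. Depth limits the early level of members such as that ranked 7, with 4 reads over the 3 SSS libraries.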
